A study of Mus musculus with 12 samples.

Results

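The liver transcriptome of mice that lack REV-ERBα was compared with that of wild-type mice at zeitgeber time 8 (ZT8; ZT0 is lights on), a time in the light phase. Livers of 6 animals were used, 3 wild-type and 3 *Rev-erbα-/-* mice, out of 12 in the series; the other 6 animals, 3 of each genotype taken at ZT20, only helped to estimate the spread and to compare the genotype effect between the time points. All 12 mice were males of 12 weeks on a mixed 129Ola/C57BL6 background, and the knockout was present in the whole body, so that a change in liver need not arise in liver cells. Poly(A) RNA was counted per gene symbol, 38926 symbols in all, of which 14488 had enough reads to be tested, and levels are given in CPM, read counts relative to library size after TMM scaling, in the order of replicates 1, 2 and 3.

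REV-ERBα is a nuclear receptor that lacks the usual activation domain, sits on ROR response elements, competes there with activating receptors, and recruits corepressors. It is part of the second loop of the circadian clock: CLOCK and ARNTL (BMAL1) switch on *Nr1d1*, which encodes REV-ERBα, and REV-ERBα in turn represses *Arntl*. In the liver it is best known for repressing genes of lipid, bile acid and glucose metabolism during the light phase, when its protein is abundant.

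The promoters of *Arntl* and *Nfil3* carry the letters of a response element and are shown as the 2 genes of the repressed list below whose windows hold it. Each RefSeq window of the mouse assembly GRCm38 runs from 250 bases before to 50 bases after the annotated start of transcription, on the strand of the gene, and the capitals mark the RORE core ANTAGGTCA, searched on both strands. The *Arntl* window lies on the plus strand at chr7:113207261-113207560 and the *Nfil3* window on the minus strand at chr13:52980990-52981289, where the match is on the opposite strand.
Arntl: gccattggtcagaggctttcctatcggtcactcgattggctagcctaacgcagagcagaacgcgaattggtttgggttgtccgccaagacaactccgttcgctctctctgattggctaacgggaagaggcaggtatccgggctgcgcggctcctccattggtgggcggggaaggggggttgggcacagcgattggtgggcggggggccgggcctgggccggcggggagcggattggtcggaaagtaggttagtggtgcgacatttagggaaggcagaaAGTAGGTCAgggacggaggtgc
Nfil3: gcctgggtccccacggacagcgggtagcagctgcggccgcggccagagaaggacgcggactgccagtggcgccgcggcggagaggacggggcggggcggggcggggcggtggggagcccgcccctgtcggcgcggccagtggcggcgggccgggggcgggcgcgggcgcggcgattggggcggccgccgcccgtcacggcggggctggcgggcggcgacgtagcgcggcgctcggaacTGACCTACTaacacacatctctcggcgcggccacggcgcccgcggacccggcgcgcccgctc
The core was present in 0.661% of all 32851 windows. A window could be assigned to 72.9% of the tested genes, too few for a comparison of shares among sets of genes, and the match is a description of the letters only. Of 19 genes listed below as repressed by REV-ERBα, 14 had a window, and the other 12 of these, among them *Clock*, *Npas2*, *Cry1* and *Insig2*, did not hold the core. Among the genes of the pathway lists that differed between the genotypes, *Scp2*, a sterol carrier, had a window with this core as well.

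The targeted gene itself cannot serve as a check of the genotype in these counts. *Nr1d1* (chr11:98767932-98775333, minus strand; gene positions are those of the GENCODE annotation of GRCm38) had 129, 96.2 and 75.3 CPM in wild-type and 63.0, 71.9 and 80.6 CPM in *Rev-erbα-/-* liver, and the genotypes overlapped. Its 3' end overlaps that of *Thra* on the opposite strand, and as strand was disregarded, reads from the overlap were counted for neither gene. A count per symbol also includes reads from any part of a disrupted gene that is still transcribed. The groups are therefore named as labelled. *Thra* (chr11:98740638-98769006), which encodes the thyroid hormone receptor α, had 17.5, 16.2 and 15.6 CPM in wild-type and 8.26, 6.33 and 5.97 CPM in *Rev-erbα-/-* liver (log2 fold change -1.26 ± 0.14 (SE), adjusted p = 6.17e-05). Every *Rev-erbα-/-* liver was below every wild-type liver. Within 5 Mb of *Nr1d1*, 20 of 189 tested genes differed, or 10.6%, near the 8.45% of all tested genes.

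One feature of the wild-type group touched many genes and was therefore measured first. An acute-phase index was formed as the mean log2 CPM of 12 genes that the liver secretes in large amounts during inflammation. It was 5.79, 9.11 and 9.41 in the wild-type mice at ZT8, 5.36, 5.55 and 5.70 in the *Rev-erbα-/-* mice at ZT8, and between 5.47 and 6.18 in the 6 mice at ZT20. Wild-type replicates 2 and 3 at ZT8 stood apart from the other 10 livers, and wild-type replicate 1 was near the *Rev-erbα-/-* range. Reads counted on genes ranged from 17641809 to 24233775 in the 6 livers, and 3 reads corresponded to 0.119 to 0.167 CPM.

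Genes were sorted by whether they moved with this index inside the wild-type group. A gene was called an acute-phase follower when its log2 CPM had an absolute correlation of at least 0.9 with the index over the 3 wild-type mice at ZT8 and changed at least 1.5-fold over the index range. A correlation over 3 mice is a way of sorting and no evidence for a relation. By this rule 1371 of the 14488 tested genes were followers (9.46%), and they are described apart from the other genes. In bulk tissue a lower level can reflect fewer cells of a type or less RNA per cell, and these cannot be told apart.

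At an adjusted p below 0.05 (edgeR quasi-likelihood test, 4 group means over 12 livers, Benjamini-Hochberg adjustment over all tested genes), 1224 genes, or 8.45% of those tested, differed between the genotypes at ZT8. Higher levels in *Rev-erbα-/-* liver were found for 638 genes (4.4%) and lower levels for 586 (4.04%), and the median log2 fold change over all tested genes was 0.00. The followers made up 112 of the 1224 genes (9.15%), close to their share among all tested genes, which left 592 genes with higher and 520 genes with lower levels outside the followers. In 1197 of the 1224 genes the ranges of the 2 genotypes did not overlap, as was the case for 25.6% of all tested genes. Changes were mostly modest, with a median of 1.44-fold. Outside the followers, 106 genes were at least 2-fold higher and 63 at least 2-fold lower.

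The number of genes depended on single mice. It fell to 542 without wild-type replicate 2, to 749 without wild-type replicate 3 and to 607 without *Rev-erbα-/-* replicate 2, and was 882 and 1193 without *Rev-erbα-/-* replicates 1 and 3. It rose to 1811 without wild-type replicate 1, the mouse with the low index. With wild-type replicate 1 as the only wild-type mouse, it was 346. With the index as a covariate, 268 of the 1112 genes outside the followers passed, and all 1112 kept their sign. The genes that passed the test in all 6 fits with 1 mouse left out numbered 464, of which 426 were outside the followers (236 higher and 190 lower). These calls are termed stable in what follows, and unless said otherwise the genes described by name were stable. Of the 426 stable genes outside the followers, 226 passed with the index as a covariate. The covariate fit is given for some genes only, and a gene named without it need not have passed it. *Lipc*, *Lipa*, *Npc1*, *Ppargc1a* and *Ugt2b1*, for instance, were stable and did not pass it (adjusted p from 0.158 to 0.262).

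**Figure D1:**
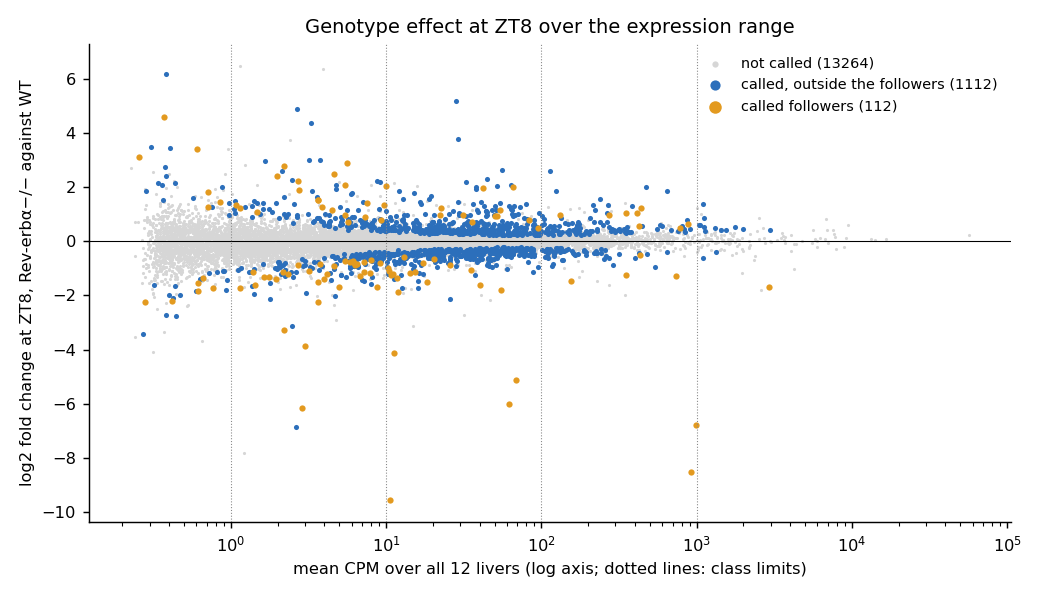
Log2 fold change of *Rev-erbα-/-* against wild-type liver at ZT8 (vertical axis) for each of the 14488 tested genes against its mean CPM over all 12 livers (horizontal log axis); grey, not called; blue, called outside the followers (1112 genes); orange, called followers (112 genes). Called genes lie on both sides of 0 in every class of expression, and the orange points below -4 include *Saa1*, *Saa2* and *Lcn2*.

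Differences were found over the whole range of expression, and the share of genes that passed was lowest among scarce transcripts. Of the 1806 genes below 1 CPM, 43 differed (2.38%), with a median of 3.62-fold, and the median standard error in this class was 0.43 on the log2 scale. In this range *Lox*, lysyl oxidase of the extracellular matrix, had 0.0796, 0.0498 and 0.152 CPM in wild-type and 0.675, 0.667 and 0.637 CPM in *Rev-erbα-/-* liver (log2 fold change 2.76 ± 0.55 (SE), adjusted p = 0.00571), and *Stac2* had 0.0398, 0 and 0.102 CPM in wild-type and 0.415, 0.611 and 0.686 CPM in *Rev-erbα-/-* liver. Both genes had 3 reads or fewer in each wild-type mouse and at least 8 in each *Rev-erbα-/-* mouse, so that the size of the change is uncertain. Between 1 and 10 CPM, 286 of 4627 genes differed (6.18%), and between 10 and 100 CPM, 709 of 6620 did (10.7%). The largest class thus held most of the changes.

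Among abundant transcripts, more of the called genes were higher than lower. Between 100 and 1000 CPM, 171 of 1298 genes differed (13.2%), 107 of them higher, with a median of 1.36-fold. *Mknk2*, a kinase of the translation factor eIF4E, had 166, 179 and 168 CPM in wild-type and 87.8, 90.8 and 105 CPM in *Rev-erbα-/-* liver (log2 fold change -0.85 ± 0.10 (SE), adjusted p = 0.000107). Among the 137 genes at or above 1000 CPM, 15 differed (10.9%), 12 of them higher and 3 lower, with a median of 1.44-fold. *Rnase4*, a secreted ribonuclease, was one of the lower ones with 1524, 1831 and 2002 CPM in wild-type and 1159, 1180.3 and 1137 CPM in *Rev-erbα-/-* liver (log2 fold change -0.62 ± 0.11 (SE), adjusted p = 0.00254). It did not pass with the acute-phase index as a covariate (log2 fold change -0.39, adjusted p = 0.159).

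The clock came first among the gene groups. Of 5 tested activators of the clock loop, *Arntl*, *Clock* and *Npas2* were higher, and *Rora* did not pass the test. *Arntl* had 0.796, 0.448 and 0.712 CPM in wild-type and 24.3, 25.7 and 22.7 CPM in *Rev-erbα-/-* liver (log2 fold change 5.18 ± 0.13 (SE), adjusted p = 2.23e-12), the largest change of the group, and its promoter is shown above. *Clock*, the partner of ARNTL, had 32.3, 26.7 and 29.8 CPM in wild-type and 81.3, 71.9 and 69.0 CPM in *Rev-erbα-/-* liver (log2 fold change 1.32 ± 0.09 (SE), adjusted p = 1.87e-07). *Npas2*, which can stand in for CLOCK, rose from 0.0796, 0.0996 and 0.0508 CPM to 0.883, 0.611 and 0.490 CPM (log2 fold change 3.01 ± 0.56 (SE), adjusted p = 0.00363), with 1 or 2 reads in each wild-type mouse and 10 to 17 in each *Rev-erbα-/-* mouse, so that the size of this change is uncertain. The genotypes did not overlap in any of these genes.

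Only 1 of 8 repressors of the clock loop passed the test. *Cry1* had 7.68, 6.83 and 4.98 CPM in wild-type and 26.2, 27.5 and 24.6 CPM in *Rev-erbα-/-* liver (log2 fold change 2.00 ± 0.13 (SE), adjusted p = 1.45e-07). The remaining 7, *Per1*, *Per2*, *Per3*, *Cry2*, *Nr1d2*, *Bhlhe40* and *Bhlhe41*, had log2 fold changes between -0.69 and 0.16. *Per1* had 63.0, 76.8 and 83.0 CPM in wild-type and 42.7, 45.7 and 49.8 CPM in *Rev-erbα-/-* liver, and although the genotypes did not overlap its adjusted p was 0.159. *Nr1d2*, which encodes the paralogue REV-ERBβ, was at 138 ± 12.5 CPM (SD, n = 3) in wild-type and 133 ± 14.8 CPM (SD, n = 3) in *Rev-erbα-/-* liver.

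Among the genes that carry the clock signal to D-box targets, the repressor was higher and the activators did not pass. *Nfil3*, a repressor of D-box genes whose promoter is shown above, had 12.9, 12.0 and 11.4 CPM in wild-type and 59.9, 60.1 and 58.5 CPM in *Rev-erbα-/-* liver (log2 fold change 2.29 ± 0.07 (SE), adjusted p = 3.75e-11), with hardly any spread between mice of a genotype. The D-box activators *Dbp*, *Tef* and *Hlf* did not pass the test, with log2 fold changes of -0.19, -0.20 and 0.21 and adjusted p-values of 0.416, 0.145 and 0.181. Of 19 genes listed as repressed by REV-ERBα from general knowledge, 10 were higher and 2 lower, and the median log2 fold change of the list was 1.32. This list shares members with the clock groups and was written with results of these data known, so its direction is no independent evidence.

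**Figure D2:**
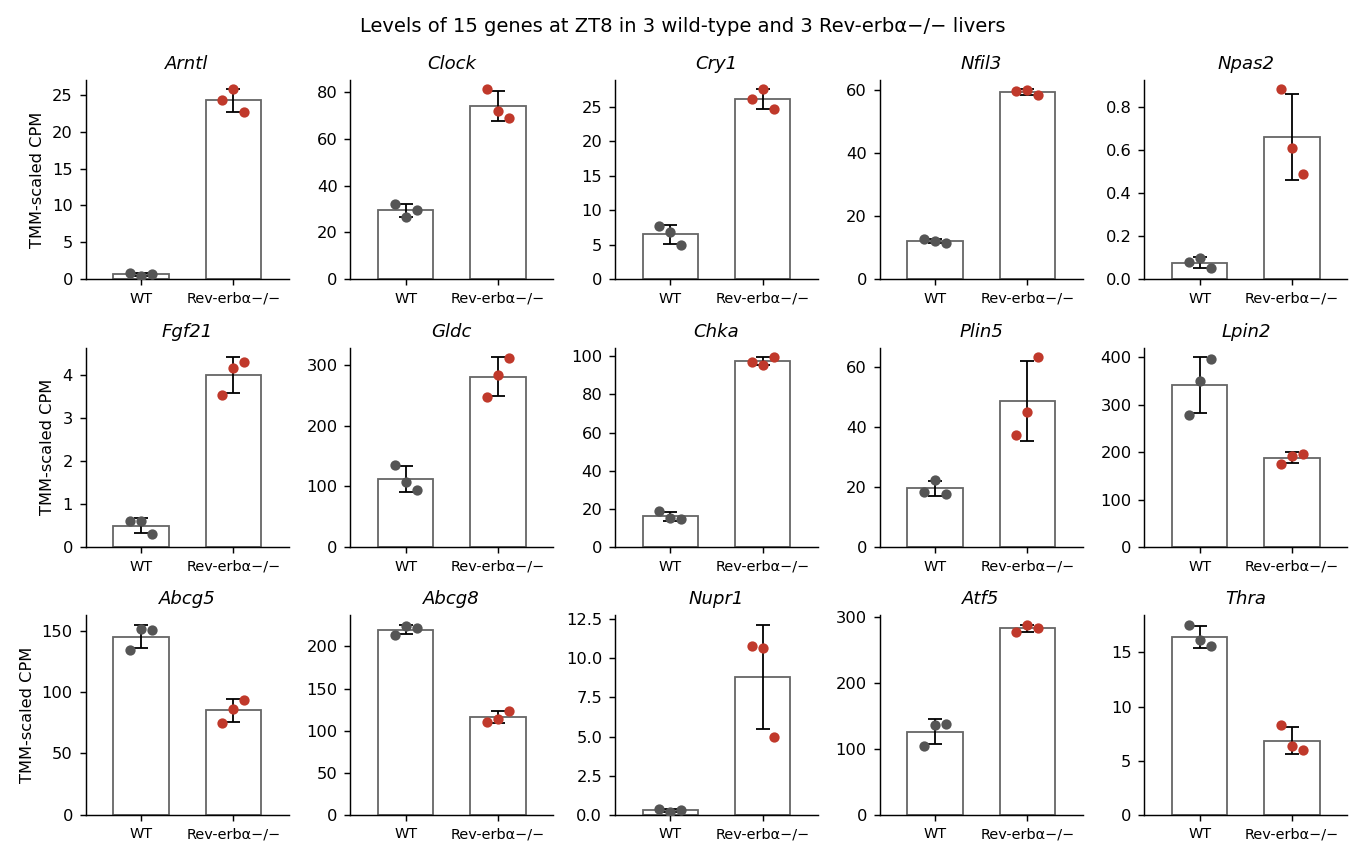
TMM-scaled CPM (vertical axes, each from 0) of 15 genes at ZT8; points are single mice, bars are means and error bars SD of 3 mice per genotype. The genotypes do not overlap in any panel, and *Lpin2*, *Abcg5*, *Abcg8* and *Thra* are the lower genes among them.

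Among the metabolic groups, enzymes of the methionine cycle and of one-carbon metabolism were mostly higher where they differed. Of 24 tested members 8 were higher and 1 was lower, 37.5% against 8.45% of all tested genes, and the median log2 fold change was 0.32. *Gldc* (chr19:30098447-30175429) and *Amt*, subunits of the glycine cleavage system that feeds carbon from glycine into folate, were both higher. *Gldc* had 135, 107 and 93.5 CPM in wild-type and 248, 284 and 313 CPM in *Rev-erbα-/-* liver (log2 fold change 1.33 ± 0.15 (SE), adjusted p = 0.000122). *Amt* had 35.9, 34.3 and 30.3 CPM in wild-type and 46.1, 47.7 and 43.5 CPM in *Rev-erbα-/-* liver (log2 fold change 0.45 ± 0.08 (SE), adjusted p = 0.00253).

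Genes of the betaine branch and of homocysteine removal were higher as well. *Dmgdh*, which breaks down the dimethylglycine left over from betaine, had 541, 445 and 391.6 CPM in wild-type and 654, 713 and 709 CPM in *Rev-erbα-/-* liver (log2 fold change 0.59 ± 0.11 (SE), adjusted p = 0.00459). *Bhmt2*, a methyltransferase that forms methionine, had 225, 213 and 205 CPM in wild-type and 276, 286 and 292 CPM in *Rev-erbα-/-* liver (log2 fold change 0.41 ± 0.08 (SE), adjusted p = 0.00712). *Cbs*, which draws homocysteine off towards cysteine, had 579, 515 and 434 CPM in wild-type and 744, 769 and 761 CPM in *Rev-erbα-/-* liver (log2 fold change 0.57 ± 0.12 (SE), adjusted p = 0.0102). All 3 genes were lowest in wild-type replicate 3, the mouse with the highest index, without meeting the follower rule, and with the index as a covariate their log2 fold changes were 0.36, 0.36 and 0.38 (adjusted p = 0.241, 0.149 and 0.311). Under that covariate *Gldc* passed with a log2 fold change of 1.08, and *Amt* did not, with one of 0.35 (adjusted p = 0.137). *Bhmt*, the betaine enzyme itself, was a follower that did not pass (adjusted p = 0.0538; its log2 fold change was 1.24). *Mat1a*, the main liver enzyme making S-adenosylmethionine, had a log2 fold change of 0.06 ± 0.15 (SE; adjusted p = 0.851).

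*Shmt1*, *Cdo1* and *Ahcy* also passed the test and were not stable. *Shmt1* had a log2 fold change of 0.33 and *Cdo1* of 0.51, and *Ahcy*, which removes S-adenosylhomocysteine, had one of -0.37. *Cdo1* failed to pass in each of the 6 fits with a mouse left out (highest adjusted p = 0.146), and *Shmt1* and *Ahcy* failed without wild-type replicates 2 or 3 or *Rev-erbα-/-* replicates 2 or 3 (highest adjusted p = 0.150 and 0.106). The log2 fold change of *Cdo1* stayed within 0.49 to 0.52 in those fits. In a fit of the 6 ZT8 livers alone *Cdo1* passed (adjusted p = 0.0199), and *Shmt1* and *Ahcy* did not (adjusted p = 0.0676 and 0.0528). *Ahcy* has near-identical copies in the genome, and only uniquely placed reads were counted.

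Choline and phospholipid synthesis was represented by 1 very large change. *Chka* (chr19:3851773-3894369), choline kinase α and the entry step of phosphatidylcholine synthesis, had 18.8, 15.05 and 14.4 CPM in wild-type and 97.1, 95.3 and 99.6 CPM in *Rev-erbα-/-* liver (log2 fold change 2.59 ± 0.10 (SE), adjusted p = 3.81e-10). The *Rev-erbα-/-* mice lay within 5 CPM of each other and about 6.03-fold above the wild-type mean. Of 25 tested genes of triglyceride and phospholipid synthesis, 3 were higher and 2 lower (20%), with a median log2 fold change of -0.06. *Agpat2*, which makes phosphatidic acid, had 169, 157 and 127 CPM in wild-type and 224, 233 and 233 CPM in *Rev-erbα-/-* liver (log2 fold change 0.61 ± 0.10 (SE), adjusted p = 0.00215). *Cept1*, which completes phosphatidylcholine and phosphatidylethanolamine, had a log2 fold change of 0.45 ± 0.08 (SE; adjusted p = 0.00260). *Lpin2*, the phosphatase that makes diacylglycerol, was lower instead, with 278, 349.7 and 395 CPM in wild-type and 175, 192 and 196 CPM in *Rev-erbα-/-* liver (log2 fold change -0.86 ± 0.14 (SE), adjusted p = 0.00218). With the acute-phase index as a covariate *Chka* passed (log2 fold change 2.38). *Lpin2*, *Agpat2* and *Cept1* did not, with log2 fold changes of -0.57, 0.44 and 0.39 (adjusted p = 0.137, 0.137 and 0.106).

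Coat and lipolysis proteins of lipid droplets moved in both directions. *Plin5*, a coat protein that tethers droplets to mitochondria, had 18.4, 22.4 and 17.8 CPM in wild-type and 37.5, 45.2 and 63.4 CPM in *Rev-erbα-/-* liver (log2 fold change 1.32 ± 0.21 (SE), adjusted p = 0.00466). *Abhd5*, the coactivator of the triglyceride lipase ATGL, was slightly higher, with 29.1, 30.6 and 30.6 CPM in wild-type and 38.5, 39.7 and 39.9 CPM in *Rev-erbα-/-* liver (log2 fold change 0.39 ± 0.08 (SE), adjusted p = 0.00662). *Plin3* was lower, with 41.1, 42.5 and 40.2 CPM in wild-type and 32.2, 30.4 and 33.0 CPM in *Rev-erbα-/-* liver (log2 fold change -0.37 ± 0.07 (SE), adjusted p = 0.00530). Of the 18 tested genes of the group 2 were higher and 2 lower (22.2%), the fourth being *Cidec*, a follower. *Plin2*, the main coat protein of liver droplets, overlapped between the genotypes, at 259.99 ± 39.3 CPM in wild-type and 265 ± 57.2 CPM in *Rev-erbα-/-* liver (SD, n = 3 each).

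None of 16 tested genes of de novo lipogenesis passed the edgeR test, while 2 had an unadjusted p below 0.05 and DESeq2 called 2. *Fasn*, fatty acid synthase, ranged from 169 to 668 CPM in wild-type and from 234 to 407 CPM in *Rev-erbα-/-* liver, so that the spread among wild-type mice exceeded the difference. *Scd1* likewise ranged from 1043 to 3255 CPM and from 2829.7 to 5953 CPM. Elongation and desaturation of fatty acids gave clearer values. *Elovl3*, which elongates saturated and monounsaturated chains, had 79.1, 63.8 and 49.9 CPM in wild-type and 216, 275 and 289 CPM in *Rev-erbα-/-* liver (log2 fold change 2.02 ± 0.19 (SE), adjusted p = 5.66e-05). *Fads3*, a desaturase family member, was lower, with 33.1, 31.0 and 22.2 CPM in wild-type and 18.5, 15.1 and 13.6 CPM in *Rev-erbα-/-* liver (log2 fold change -0.88 ± 0.14 (SE), adjusted p = 0.00124).

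Fatty acid oxidation and its PPARα-driven genes split into 4 higher and 6 lower members of 39 tested (25.6%), around a median of 0.03. *Fgf21*, a fasting hormone secreted by the liver, had 0.597, 0.598 and 0.305 CPM in wild-type and 3.53, 4.17 and 4.31 CPM in *Rev-erbα-/-* liver (log2 fold change 2.97 ± 0.34 (SE), adjusted p = 8.26e-05). *Pdk4*, the kinase that shuts off pyruvate oxidation, had 1.67, 1.84 and 2.54 CPM in wild-type and 6.91, 6.72 and 7.25 CPM in *Rev-erbα-/-* liver (log2 fold change 1.80 ± 0.24 (SE), adjusted p = 0.000572). Both changes were seen in each *Rev-erbα-/-* mouse. *Acsl1*, which activates long-chain fatty acids, rose by a smaller amount from 1293 ± 42.3 to 1858 ± 234 CPM (SD, n = 3 each; log2 fold change 0.52 ± 0.11 (SE), adjusted p = 0.00828).

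The lower members of the group were enzymes of the mitochondria and peroxisomes. *Acot4*, a peroxisomal thioesterase, had 12.5, 11.0 and 9.51 CPM in wild-type and 7.27, 5.00 and 6.90 CPM in *Rev-erbα-/-* liver (log2 fold change -0.78 ± 0.15 (SE), adjusted p = 0.00530). Its neighbour *Acot3* had 4.89, 3.19 and 1.88 CPM in wild-type and 0.312, 0.389 and 0.441 CPM in *Rev-erbα-/-* liver, a larger difference (log2 fold change -3.12 ± 0.65 (SE), adjusted p = 0.0153) that did not pass without *Rev-erbα-/-* replicates 1 or 2 (highest adjusted p = 0.0689). *Cpt1a*, the gate for entry of fatty acids into mitochondria, had 611, 719 and 754 CPM in wild-type and 443, 510.5 and 609 CPM in *Rev-erbα-/-* liver (log2 fold change -0.42 ± 0.12 (SE), adjusted p = 0.0384). It failed without wild-type replicates 2 or 3 or *Rev-erbα-/-* replicates 1 or 2, with adjusted p-values of up to 0.142. *Eci2*, an isomerase for unsaturated fatty acids, had a log2 fold change of -0.42 and failed only without wild-type replicate 2 (adjusted p = 0.0509). *Ppara* itself did not pass (adjusted p = 0.199).

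**Figure D3:**
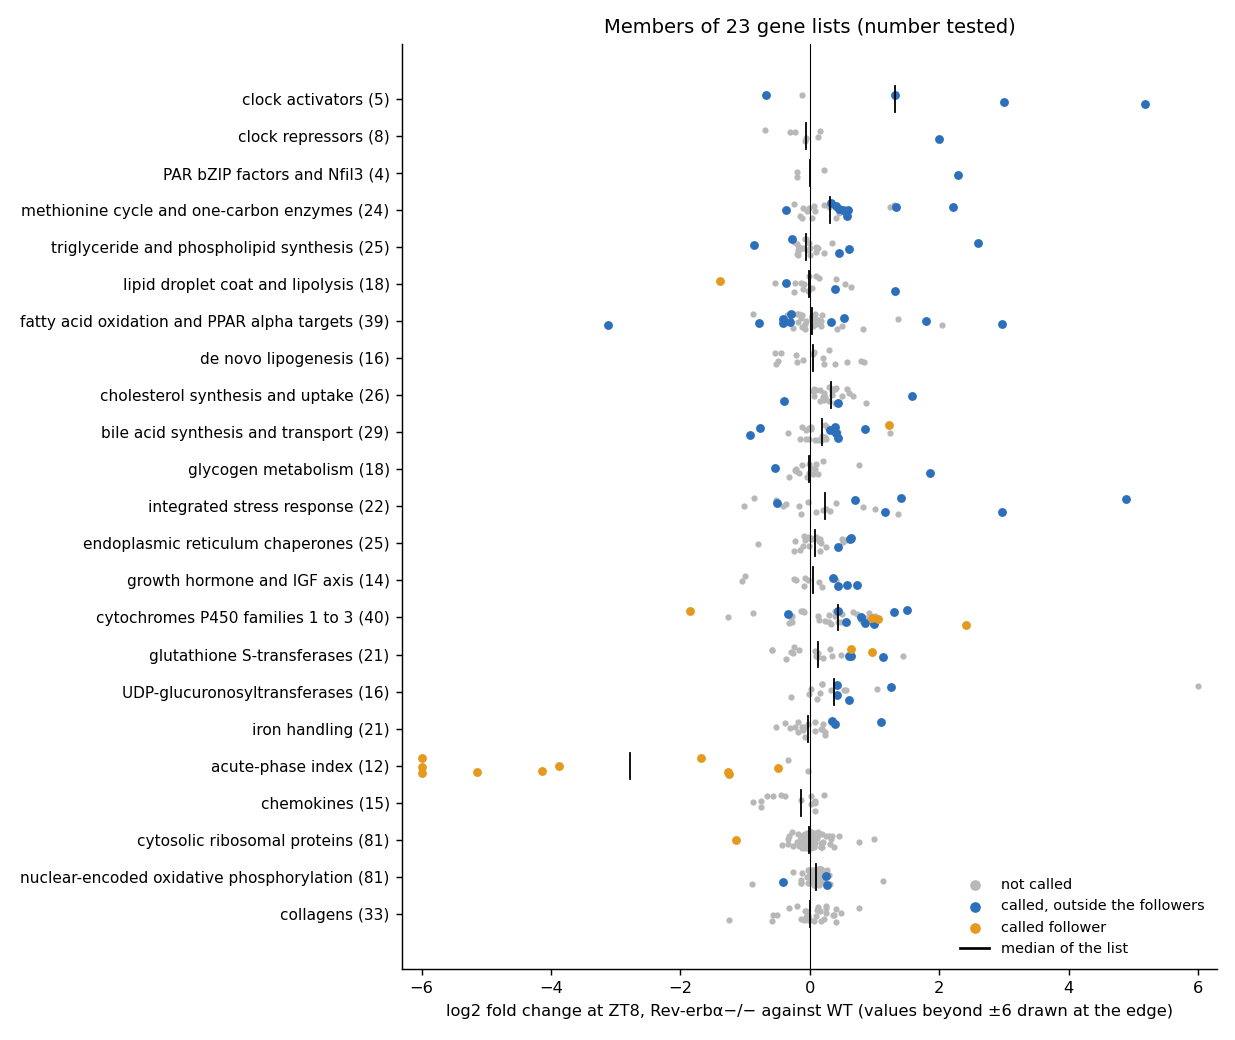
Log2 fold change at ZT8 (horizontal axis) of the tested members of 23 gene lists (rows, number tested in brackets); grey, not called; blue, called outside the followers; orange, called followers; black bar, median of the list. One-carbon enzymes and P450s hold 8 and 7 blue points right of 0, while ribosomal proteins, collagens and chemokines cluster near 0 with 1, 0 and 0 called genes.

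Both genes of the biliary sterol transporter were lower. *Abcg5* (chr17:84658234-84683011) and *Abcg8* (chr17:84676302-84700333) lie head to head on chromosome 17, overlap in the annotation and encode the partners of the transporter that secretes cholesterol into bile. *Abcg5* had 134, 151 and 150.4 CPM in wild-type and 75.0, 86.6 and 93.9 CPM in *Rev-erbα-/-* liver (log2 fold change -0.77 ± 0.08 (SE), adjusted p = 3.66e-05). *Abcg8* had 214, 224 and 223 CPM in wild-type and 110.4, 114 and 124 CPM in *Rev-erbα-/-* liver (log2 fold change -0.93 ± 0.10 (SE), adjusted p = 4.33e-05). Both also passed with the acute-phase index as a covariate, with log2 fold changes of -0.65 and -0.91. Reads from the stretch shared by the 2 genes cannot be assigned without strand.

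Of 29 tested genes of bile acid synthesis and transport, 6 were higher and 2, these transporter genes, were lower (27.6%), and the median log2 fold change was 0.18. *Cyp2c70*, the mouse enzyme that makes muricholic acids, had 677, 754 and 859 CPM in wild-type and 1331, 1413 and 1381 CPM in *Rev-erbα-/-* liver (log2 fold change 0.85 ± 0.11 (SE), adjusted p = 0.000281). *Cyp8b1*, which sets the share of cholic acid, was higher but met the follower rule, with 336, 239 and 178 CPM in wild-type and 458, 549 and 745 CPM in *Rev-erbα-/-* liver (log2 fold change 1.22 ± 0.22 (SE), adjusted p = 0.00742). *Cyp7a1*, the rate-limiting enzyme of bile acid synthesis and a follower, overlapped between the genotypes, with 255, 383 and 493 CPM in wild-type and 415, 466 and 647 CPM in *Rev-erbα-/-* liver (adjusted p = 0.597). *Abcb11*, *Baat*, *Scp2* and *Slco1a1* had log2 fold changes between 0.31 and 0.43, and each failed in at least 4 of the 6 fits with a mouse left out.

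Of 26 tested genes of cholesterol synthesis and uptake, 2 were higher and 1 was lower (11.5%, against 8.45% of all tested genes), with a median log2 fold change of 0.32. An unadjusted p below 0.05 was found for 11 of the 26, and DESeq2 called 6. *Insig2*, which holds back the activation of SREBPs, was the stable one (log2 fold change 1.58 ± 0.15 (SE), adjusted p = 3.95e-05). *Tm7sf2*, a late step of sterol synthesis, had a log2 fold change of 0.44 and failed without wild-type replicates 2 or 3 or *Rev-erbα-/-* replicate 3 (highest adjusted p = 0.0700).

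In glucose metabolism, 3 of 34 genes of gluconeogenesis and glycolysis (8.82%) and 2 of 18 genes of glycogen metabolism (11.1%) passed the test, shares near the 8.45% of all tested genes. *Ppp1r3b*, which brings a phosphatase to glycogen and favours its synthesis, had 347, 198 and 99.0 CPM in wild-type and 759, 743 and 827 CPM in *Rev-erbα-/-* liver (log2 fold change 1.86 ± 0.35 (SE), adjusted p = 0.0132). The wild-type mice differed more than 3-fold among themselves but lay below all *Rev-erbα-/-* mice, and the call was lost without wild-type replicate 2 (adjusted p = 0.0615). With the acute-phase index as a covariate *Ppp1r3b* did not pass either (log2 fold change 1.07, adjusted p = 0.0778). *Gys2*, the liver glycogen synthase, was lower with 381, 393 and 413 CPM in wild-type and 208, 265 and 339.9 CPM in *Rev-erbα-/-* liver (log2 fold change -0.55 ± 0.13 (SE), adjusted p = 0.0162) and failed without wild-type replicates 2 or 3 or *Rev-erbα-/-* replicate 2 (highest adjusted p = 0.0741). *Slc2a1*, the glucose transporter GLUT1, had 7.04, 8.72 and 7.22 CPM in wild-type and 13.3, 12.8 and 11.9 CPM in *Rev-erbα-/-* liver (log2 fold change 0.73 ± 0.13 (SE), adjusted p = 0.00293). *Ppargc1a*, which encodes PGC-1α, a coactivator of fasting genes, was lower, with 13.1, 15.1 and 16.1 CPM in wild-type and 10.8, 8.72 and 7.59 CPM in *Rev-erbα-/-* liver (log2 fold change -0.71 ± 0.14 (SE), adjusted p = 0.00525). The remaining called gene, *Gapdh*, a follower, has many processed copies and few uniquely placed reads, and its value is uncertain; of the 6 fits with a mouse left out it passed only in that without wild-type replicate 3 (highest adjusted p = 0.157). *Pck1*, a follower, and *G6pc*, the marker enzymes of gluconeogenesis, did not pass (adjusted p = 0.559 and 0.506).

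Genes of the integrated stress response rose in part. Of 22 tested members 5 were higher and 1 lower (27.3%), all 6 stable, and the median log2 fold change was 0.23. *Nupr1* (chr7:126623249-126630861), a small stress-induced nuclear protein, had 0.358, 0.199 and 0.305 CPM in wild-type and 10.8, 10.7 and 4.99 CPM in *Rev-erbα-/-* liver (log2 fold change 4.89 ± 0.36 (SE), adjusted p = 9.72e-07). *Fgf21*, described above, is also a member. *Atf5* had 104, 136 and 138 CPM in wild-type and 278, 288 and 284 CPM in *Rev-erbα-/-* liver (log2 fold change 1.17 ± 0.15 (SE), adjusted p = 0.000529), *Atf3* a log2 fold change of 1.40 ± 0.28 and *Ddit3*, which encodes CHOP, one of 0.70 ± 0.13 (SE). *Eif4ebp1*, a target of ATF4 that restrains translation, was lower, with 36.3, 40.5 and 38.6 CPM in wild-type and 28.4, 26.2 and 26.8 CPM in *Rev-erbα-/-* liver (log2 fold change -0.50 ± 0.09 (SE), adjusted p = 0.00363). *Asns* and *Trib3*, usual readouts of ATF4, were not among the higher genes, with log2 fold changes of -0.86 and -0.36 (adjusted p = 0.191 and 0.201). *Asns* was a follower, with 18.4, 44.8 and 46.3 CPM in wild-type and 22.8, 21.3 and 16.2 CPM in *Rev-erbα-/-* liver, and its log2 fold change was 0.16 with the index as a covariate (adjusted p = 0.905).

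Of 25 endoplasmic reticulum chaperones and folding factors, 3 were higher (12%). *Dnajb9* was stable, with 33.3, 29.8 and 32.6 CPM in wild-type and 49.3, 46.3 and 52.9 CPM in *Rev-erbα-/-* liver (log2 fold change 0.63 ± 0.10 (SE), adjusted p = 0.000759). *Hspa5*, which encodes BiP, had 451, 552 and 597 CPM in wild-type and 686, 838 and 925 CPM in *Rev-erbα-/-* liver (log2 fold change 0.61 ± 0.16 (SE), adjusted p = 0.0337) and failed without wild-type replicates 1 or 2 or *Rev-erbα-/-* replicates 2 or 3 (highest adjusted p = 0.106).

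Drug and steroid metabolism held many small increases and many followers. Of 40 tested P450 genes of families 1 to 3, 10 were higher and 2 lower (30%), 14 of the 40 were followers, and the median log2 fold change was 0.43. Outside the followers 7 were higher and 1 lower, and 3 of these were stable. With the acute-phase index as a covariate, 5 of the 40 passed. Outside the followers *Cyp2a5*, the coumarin hydroxylase, had 1024, 844 and 744 CPM in wild-type and 1401, 1703 and 1402 CPM in *Rev-erbα-/-* liver (log2 fold change 0.79 ± 0.14 (SE), adjusted p = 0.00210), and *Cyp2c68* had 47.3, 40.4 and 38.9 CPM in wild-type and 91.3, 81.6 and 77.9 CPM in *Rev-erbα-/-* liver (log2 fold change 0.99 ± 0.18 (SE), adjusted p = 0.00765). Neither passed with the index as a covariate, with log2 fold changes of 0.50 and 0.85 (adjusted p = 0.153 and 0.206). These genes belong to clusters of closely similar copies, and reads that fit more than 1 copy were not counted, so their values are uncertain. Of 21 glutathione S-transferases 5 were higher (23.8%), all of the Gstm cluster on chromosome 3. *Gstm2* had 35.1, 27.5 and 24.1 CPM in wild-type and 53.9, 64.0 and 72.0 CPM in *Rev-erbα-/-* liver (log2 fold change 1.13 ± 0.13 (SE), adjusted p = 0.000179), *Gstm7* had a log2 fold change of 0.60 ± 0.10 (SE), and *Gstm1* and *Gstm3* met the follower rule. Of the 6 fits with a mouse left out, *Gstm1* passed in 1 and *Gstm3* in 2 (highest adjusted p = 0.146 and 0.133), and both failed without wild-type replicate 2 or any 1 of the *Rev-erbα-/-* replicates. Of 16 UDP-glucuronosyltransferases 4 were higher (25%), among them the abundant *Ugt2b1* with 838, 791 and 761 CPM in wild-type and 1343, 1191 and 1082 CPM in *Rev-erbα-/-* liver (log2 fold change 0.60 ± 0.12 (SE), adjusted p = 0.00751).

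The growth hormone and IGF axis gave 4 higher genes of 14 (28.6%) and none lower, with a median of 0.05. *Stat5a*, a transcription factor downstream of growth hormone, had 9.79, 10.7 and 12.0 CPM in wild-type and 15.6, 17.6 and 20.7 CPM in *Rev-erbα-/-* liver (log2 fold change 0.73 ± 0.12 (SE), adjusted p = 0.00125). *Prlr*, the prolactin receptor, had 76.9, 97.9 and 118 CPM in wild-type and 157, 143 and 137 CPM in *Rev-erbα-/-* liver (log2 fold change 0.58 ± 0.12 (SE), adjusted p = 0.00819). Within the wild-type mice both genes were highest in replicate 3, and both also passed with the acute-phase index as covariate (log2 fold changes of 0.91 and 0.95). *Igf1* rose from 707 ± 29.1 to 957 ± 118 CPM (SD, n = 3 each; adjusted p = 0.0114) and failed without wild-type replicate 2 (adjusted p = 0.0553). *Igfals* had a log2 fold change of 0.36 and passed in 2 of the 6 fits. The growth hormone receptor gene *Ghr* did not pass (adjusted p = 0.459).

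Of 37 nuclear receptor genes, 2 were higher and 3 lower (13.5%), *Thra* among the latter. *Ppard*, which encodes PPARδ, had 7.80, 8.77 and 9.20 CPM in wild-type and 15.9, 14.3 and 19.0 CPM in *Rev-erbα-/-* liver (log2 fold change 0.94 ± 0.16 (SE), adjusted p = 0.00227). *Nr3c2*, the mineralocorticoid receptor gene, had 28.6, 29.9 and 31.2 CPM in wild-type and 23.5, 18.8 and 18.0 CPM in *Rev-erbα-/-* liver (log2 fold change -0.57 ± 0.11 (SE), adjusted p = 0.00375). *Hnf4a*, a master regulator of hepatocytes, had a log2 fold change of 0.35 and passed in only 1 of the 6 fits with a mouse left out.

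Breakdown of tryptophan and aromatic amino acids showed 3 higher and 1 lower of 18 genes (22.2%), and all 4 were stable. *Kynu*, kynureninase of the kynurenine pathway, had 200.4, 173 and 163 CPM in wild-type and 307, 301 and 272 CPM in *Rev-erbα-/-* liver (log2 fold change 0.71 ± 0.10 (SE), adjusted p = 0.000608). *Aadat*, an aminotransferase of the same pathway, had a log2 fold change of 0.52 ± 0.09 (SE; adjusted p = 0.00196), and *Ccbl1*, another aminotransferase, one of -0.42 ± 0.08 (adjusted p = 0.00417). Iron handling showed 3 higher genes of 21 (14.3%). *Slc11a2*, the iron transporter DMT1, had 36.9, 38.2 and 35.9 CPM in wild-type and 47.8, 48.1 and 49.4 CPM in *Rev-erbα-/-* liver (log2 fold change 0.39 ± 0.07 (SE), adjusted p = 0.00183), and *Hfe2*, hemojuvelin, which drives hepcidin, had a log2 fold change of 0.35 ± 0.07 (SE). *Tfrc*, the transferrin receptor, was 2.13-fold higher (log2 fold change 1.09 ± 0.23 (SE), adjusted p = 0.0185) but failed without wild-type replicates 2 or 3 or *Rev-erbα-/-* replicates 1 or 2 (highest adjusted p = 0.0680).

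The serpins included some of the largest changes of secreted proteins. *Serpina12*, vaspin, had 25.6, 19.7 and 19.2 CPM in wild-type and 99.9, 129 and 169.6 CPM in *Rev-erbα-/-* liver (log2 fold change 2.62 ± 0.24 (SE), adjusted p = 0.000185). *Serpina7*, the thyroxine-binding globulin gene, went down, with 29.8, 25.2 and 28.2 CPM in wild-type and 14.2, 9.72 and 6.56 CPM in *Rev-erbα-/-* liver (log2 fold change -1.45 ± 0.26 (SE), adjusted p = 0.00766). The genotypes did not overlap in either gene. Of all 33 tested serpins, 2 were higher and 3 lower (15.2%).

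Large decreases outside the followers were found in genes of varied roles. *Rgs16*, which turns off G protein signalling and is induced by fasting in liver, had 108, 81.2 and 52.6 CPM in wild-type and 13.7, 16.7 and 24.1 CPM in *Rev-erbα-/-* liver (log2 fold change -2.15 ± 0.31 (SE), adjusted p = 0.00361). *Maff*, a small MAF factor, had 3.70, 4.23 and 4.07 CPM in wild-type and 1.04, 0.667 and 1.03 CPM in *Rev-erbα-/-* liver (log2 fold change -2.12 ± 0.21 (SE), adjusted p = 1.89e-05). *Lpar2*, a receptor for lysophosphatidic acid, had 3.14, 2.74 and 3.05 CPM in wild-type and 0.779, 0.944 and 0.588 CPM in *Rev-erbα-/-* liver (log2 fold change -1.95 ± 0.34 (SE), adjusted p = 0.00251). All 3 were lower in each *Rev-erbα-/-* mouse. *Wee1*, the kinase that delays entry into mitosis and a target of CLOCK and ARNTL, had 14.8, 14.6 and 13.5 CPM in wild-type and 4.99, 4.17 and 7.88 CPM in *Rev-erbα-/-* liver (log2 fold change -1.33 ± 0.17 (SE), adjusted p = 0.000197). *Ak4*, a mitochondrial adenylate kinase, had 121, 114 and 107 CPM in wild-type and 47.6, 52.6 and 55.7 CPM in *Rev-erbα-/-* liver (log2 fold change -1.14 ± 0.08 (SE), adjusted p = 2.86e-07), and *Adamts7*, a secreted protease, had 11.2, 11.7 and 12.2 CPM in wild-type and 5.04, 4.17 and 4.02 CPM in *Rev-erbα-/-* liver (log2 fold change -1.41 ± 0.12 (SE), adjusted p = 5.35e-06). *Tmem51* had 19.2, 18.6 and 13.9 CPM in wild-type and 6.02, 5.50 and 4.02 CPM in *Rev-erbα-/-* liver (log2 fold change -1.74 ± 0.16 (SE), adjusted p = 9.20e-06).

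When tested genes were grouped by the stem of their symbol instead of by pathway, 223 families with at least 8 members were found, and 72 of them held no called gene outside the followers. The highest shares were 3 of 8 for Nol and 3 of 8 for Rrp (37.5% each), followed by 4 of 12 for Slc22a (33.3%) and 3 of 10 for Traf (30%), against 8.48% of all tested genes outside the followers; 11 further families had 25%. A stem is not always a true family, and the ranking used the same calls. Of these 6 Nol and Rrp genes, *Rrp12*, *Rrp1b*, *Rrp8*, *Nol8* and *Nol10* were higher, by 0.38 to 0.66 on the log2 scale. *Rrp12* failed only without wild-type replicate 3 (adjusted p = 0.0549), and the other 4 failed in at least 4 of the 6 fits (highest adjusted p = 0.158). *Nol3*, an inhibitor of cell death despite its symbol, was lower, with 0.875, 0.996 and 1.32 CPM in wild-type and 0.260, 0.278 and 0.343 CPM in *Rev-erbα-/-* liver (log2 fold change -1.82 ± 0.36 (SE), adjusted p = 0.00586). In the organic ion transporter family *Slc22a5*, the carnitine transporter, and *Slc22a23* were lower, and *Slc22a30* and *Slc22a28* were higher. *Slc22a5* failed only without wild-type replicate 2 (adjusted p = 0.0648), and the other 3 without either of wild-type replicates 2 and 3, among others. Of the Traf stem, *Traf3ip2* had a log2 fold change of 0.85 (adjusted p = 0.00533) and was stable, and *Traf3* and *Traf4*, at 0.45 and -0.29, were not.

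Further lists held a few called genes each. Among lipoprotein genes, 3 of 27 were higher (11.1%), with *Lipc* stable, *Apoa5* lost only without *Rev-erbα-/-* replicate 2 (adjusted p = 0.0522) and *Lpl* lost in all 6 fits. *Lpl*, lipoprotein lipase, had 29.1, 26.1 and 26.6 CPM in wild-type and 72.5, 73.9 and 78.9 CPM in *Rev-erbα-/-* liver (log2 fold change 1.46 ± 0.34 (SE), adjusted p = 0.0324), and its log2 fold change stayed within 1.43 to 1.51 in those fits, with adjusted p-values of up to 0.118, against 6.91e-06 in a fit of the 6 ZT8 livers alone. Of 31 complement factors 3 were higher (9.68%), *Mbl1* and *Cfhr2* among them, and of 20 urea cycle genes *Nags* and *Arg1* were (10%), none of these genes stable; *Mbl1* was lost only without *Rev-erbα-/-* replicate 2 (adjusted p = 0.0746). The NF-κB feedback genes *Nfkbia*, *Ikbke* and *Birc3* were lower (3 of 17, 17.6%), and only *Nfkbia* was stable. *Foxo3*, a transcription factor held in check by insulin, was the 1 called gene of 21 of insulin signalling and fasting, with 84.9, 79.9 and 79.7 CPM in wild-type and 57.3, 55.2 and 56.1 CPM in *Rev-erbα-/-* liver (log2 fold change -0.54 ± 0.08 (SE), adjusted p = 0.000916). *Npc1*, which moves cholesterol out of lysosomes, had 207, 211 and 225 CPM in wild-type and 111, 131 and 162 CPM in *Rev-erbα-/-* liver (log2 fold change -0.68 ± 0.14 (SE), adjusted p = 0.0101), and *Lipa*, the lysosomal acid lipase, had 195, 174 and 166 CPM in wild-type and 229, 233 and 239 CPM in *Rev-erbα-/-* liver (log2 fold change 0.39 ± 0.08 (SE), adjusted p = 0.00588), within 3 called of 35 genes of autophagy and lysosomes (8.57%). *Mcm7*, a subunit of the replicative helicase, was the 1 called gene of 20 proliferation genes, with 6.45, 6.28 and 5.44 CPM in wild-type and 8.98, 10.0 and 10.1 CPM in *Rev-erbα-/-* liver (log2 fold change 0.68 ± 0.13 (SE), adjusted p = 0.00359).

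Lists of the basic machinery of the cell, of matrix and of immune genes held few called genes, against 8.45% of all tested genes. Of 81 cytosolic ribosomal proteins 1 was called (1.23%) and of 81 nuclear genes of oxidative phosphorylation 3 were (3.70%). Of 38 proteasome subunits 1 was called (2.63%), and of 41 interferon-stimulated genes 1 (2.44%). None of 33 collagens, 16 genes of heme synthesis and breakdown, 15 chemokines or 15 mitochondrially encoded genes passed the edgeR test. Lists this small would hold few calls at the share of all tested genes. In each of these 4 groups 2 genes had an unadjusted p below 0.05, and DESeq2 called 1, 1, 0 and 0 of them. Their median log2 fold changes lay between -0.14 and 0.05.

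**Figure D4:**
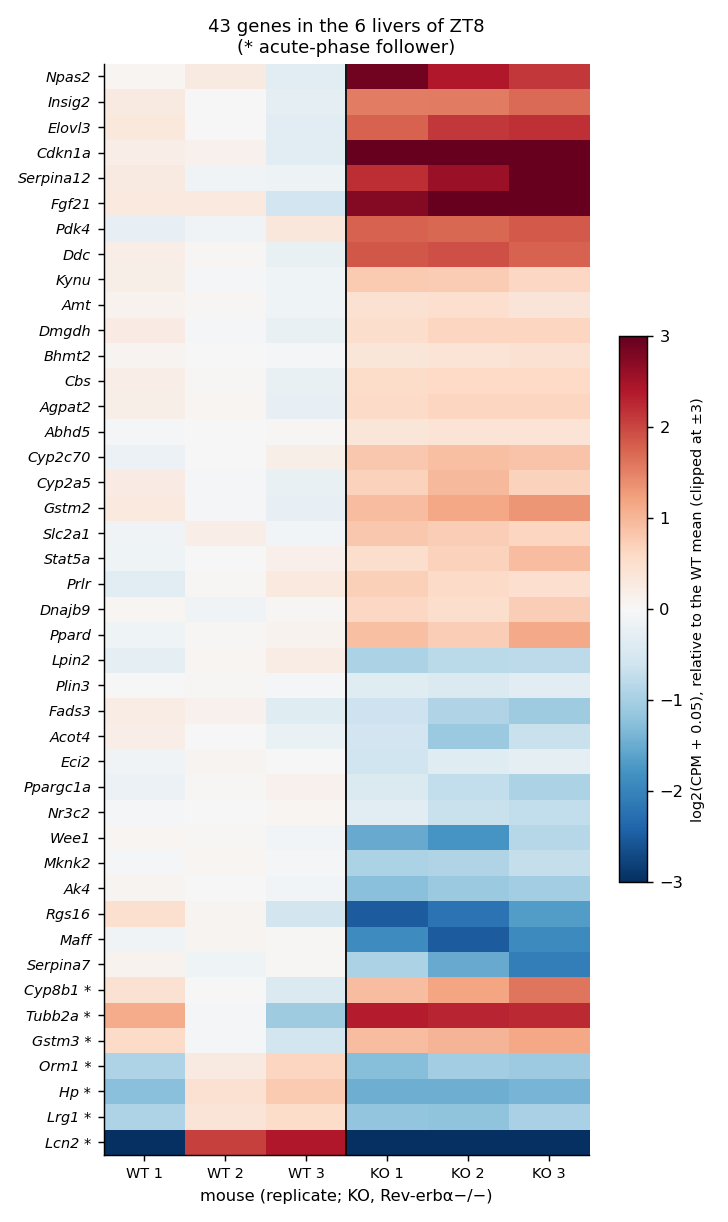
Log2(CPM + 0.05) of 43 genes (rows) in the 6 livers of ZT8 (columns, replicates 1 to 3 of each genotype), relative to the mean of the 3 wild-type mice; the colour scale is clipped at ±3 and an asterisk marks acute-phase followers. Rows without an asterisk differ mainly between the left 3 and the right 3 columns, while the index genes at the bottom split wild-type replicate 1 from replicates 2 and 3.

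Among the acute-phase followers, the index genes are described first. Of the 12 index genes 10 were called, all lower in *Rev-erbα-/-* liver, with a median log2 fold change of -2.78 for the 12. *Hp*, haptoglobin, had 1944, 6316 and 7985 CPM in wild-type and 1658, 1671 and 1747 CPM in *Rev-erbα-/-* liver (log2 fold change -1.68 ± 0.40 (SE), adjusted p = 0.0341), and *Lrg1*, a secreted glycoprotein of the acute phase, had 285, 709 and 796 CPM in wild-type and 240.1, 235 and 278 CPM in *Rev-erbα-/-* liver (log2 fold change -1.25 ± 0.32 (SE), adjusted p = 0.0444). In both genes wild-type replicate 1 was only slightly above the *Rev-erbα-/-* mice, and wild-type replicates 2 and 3 were far above them. *Lcn2*, which withholds iron from bacteria, had 3.30, 307 and 393 CPM in wild-type and 2.44, 3.22 and 4.99 CPM in *Rev-erbα-/-* liver, and here the genotypes overlapped. Each of the 10 calls was lost in 5 of the 6 fits with a mouse left out, with adjusted p-values of up to 0.187, and was kept only without wild-type replicate 1.

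Among all 112 called followers, 67 rose with the index in the wild-type mice and 45 fell. Of the 67, 55 were lower in *Rev-erbα-/-* liver, and of the 45, 34 were higher. The wild-type values enter both the sorting and the genotype difference, so these counts describe the data and are not independent of each other. *Tubb2a*, a tubulin gene that falls with the index, had 14.8, 6.73 and 3.25 CPM in wild-type and 35.5, 33.9 and 32.5 CPM in *Rev-erbα-/-* liver (log2 fold change 2.00 ± 0.41 (SE), adjusted p = 0.0211), and *Cyp2c55* had 0.637, 0.399 and 0.254 CPM in wild-type and 2.49, 2.33 and 2.30 CPM in *Rev-erbα-/-* liver (log2 fold change 2.41 ± 0.32 (SE), adjusted p = 0.000254). *Cidec*, a protein that lets lipid droplets fuse, rose with the index and had 2.47, 3.84 and 4.93 CPM in wild-type and 1.51, 1.33 and 1.42 CPM in *Rev-erbα-/-* liver (log2 fold change -1.38 ± 0.29 (SE), adjusted p = 0.00812). *Il1rn*, the interleukin-1 receptor antagonist, had 1.35, 2.49 and 2.80 CPM in wild-type and 0.727, 0.500 and 0.735 CPM in *Rev-erbα-/-* liver (log2 fold change -1.73 ± 0.34 (SE), adjusted p = 0.00577). Of these, *Cyp2c55*, *Cidec* and *Il1rn* were stable, and *Tubb2a* failed without wild-type replicate 2 or *Rev-erbα-/-* replicates 1 or 2. With the index as a covariate *Cyp2c55* passed (log2 fold change 2.00, adjusted p = 0.0252). *Tubb2a*, *Cidec* and *Il1rn* did not, with log2 fold changes of 1.15, -0.80 and -1.04 (adjusted p = 0.132, 0.340 and 0.288). With wild-type replicate 1 as the only wild-type mouse, 111 of the 112 called followers kept their sign. Of 25 further acute-phase genes outside the index, 13 were followers and 1, *Il1rn*, was called.

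**Figure D5:**
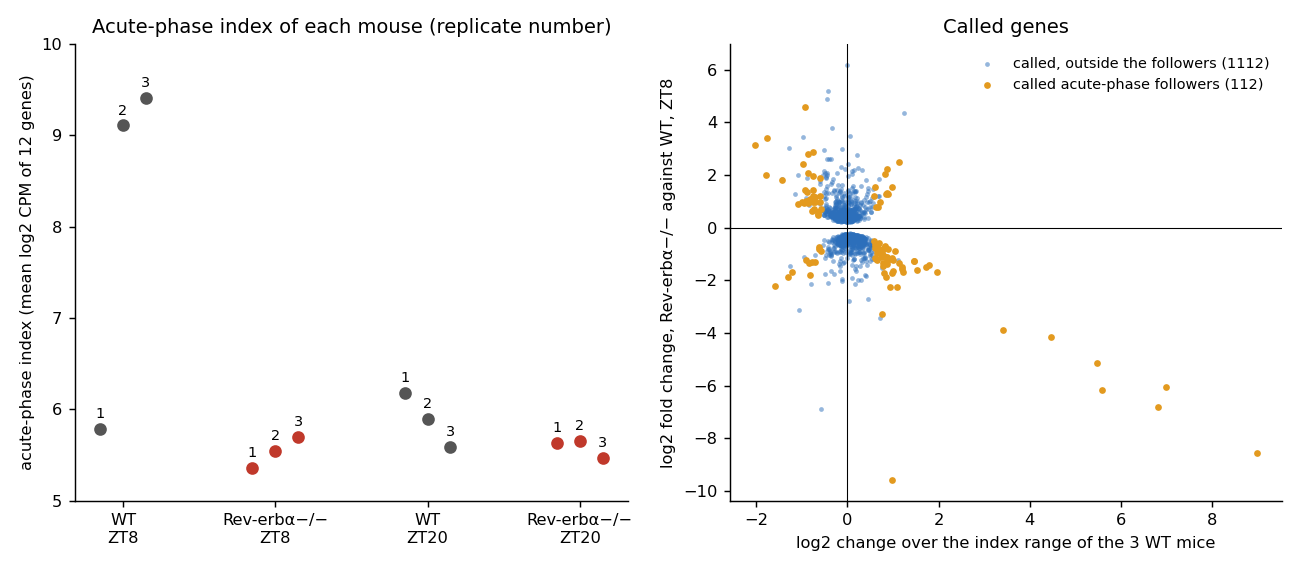
Left, acute-phase index (mean log2 CPM of 12 genes) of each of the 12 mice by group, with replicate numbers. Right, log2 fold change of *Rev-erbα-/-* against wild-type at ZT8 for the 1224 called genes against their log2 change over the index range of the 3 wild-type mice; blue, 1112 genes outside the followers; orange, 112 followers. Wild-type replicates 2 and 3 of ZT8 lie above 9 and the other 10 mice below 6.2, and the followers with the strongest rise in wild-type mice lie far below 0.

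Markers of other liver cells were measured beside these groups. All 9 Kupffer cell and macrophage markers had negative log2 fold changes, with a median of -0.47, and 4 of them were followers. None was called by edgeR, 6 had an unadjusted p below 0.05 and DESeq2 called 3. Their summed level was 387 to 604 CPM in wild-type and 345 to 420.3 CPM in *Rev-erbα-/-* liver, highest in wild-type replicate 3. The 8 sinusoidal endothelial markers summed to 349 to 366 CPM and 336 to 372 CPM, and the 8 stellate cell markers to 346 to 411 CPM and 359 to 379 CPM, with no member called by edgeR, 1 member of each list at an unadjusted p below 0.05, and 0 and 1 called by DESeq2. The 6 tested neutrophil and monocyte markers summed to at most 11.2 CPM, and *Ly6g*, which defines neutrophils, had no read in any of the 12 livers. The part of such cells in the acute-phase differences was not tested.

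Cholangiocyte and pancreas markers held 1 called gene each. *Sox9*, a bile duct transcription factor, had 5.17, 3.69 and 3.66 CPM in wild-type and 8.41, 7.83 and 12.7 CPM in *Rev-erbα-/-* liver (log2 fold change 1.20 ± 0.19 (SE), adjusted p = 0.00126), while the duct keratins *Krt7* and *Krt19* stayed below 1 CPM in all 6 livers and did not pass. *Cela1*, an elastase, had 26.7, 28.6 and 25.9 CPM in wild-type and 58.3, 59.7 and 43.6 CPM in *Rev-erbα-/-* liver (log2 fold change 0.99 ± 0.19 (SE), adjusted p = 0.00828), and the acinar genes *Prss1* and *Cpa1* had no reads. The 8 hepatocyte markers summed to 58926 to 81076 CPM in wild-type and 64166 to 90493 CPM in *Rev-erbα-/-* liver, so that the labelled tissue was seen in every sample. Their log2 fold changes lay between -0.43 and 0.43. Of these markers 1, *Hnf4a*, was called by edgeR, 7 had an unadjusted p below 0.05 and DESeq2 called 6.

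Lastly, the genotype effect at ZT8 was compared with that at ZT20. The difference of the effects (interaction) passed the test for 852 genes, or 5.88% of those tested, and for 471 of the 1112 called genes outside the followers. This difference uses the same ZT8 mice as the calls and is not independent of them. *Chka* had a log2 fold change of 2.59 at ZT8 and -0.39 at ZT20, and *Fgf21* had 2.97 and -2.19, opposite in sign. *Abcg5* had -0.77 and -0.07. *Serpina12* had 2.62 and 2.31, and the difference did not pass (adjusted p = 0.669).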

How the data were processed

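Liver RNA of 12 mice (3 per genotype and time point) was sequenced as poly(A) libraries. The deposited values are raw counts per gene symbol, which the authors made from uniquely aligned reads (TopHat, mm10) with htseq-count in union mode without strand. Multi-copy and overlapping genes can therefore lose reads. From these counts, genes with enough reads (filterByExpr) were fitted with edgeR 4.0.16 in R 4.3.3 (TMM scaling, robust quasi-likelihood, 4 group means). The contrast was *Rev-erbα-/-* minus wild-type at ZT8, with Benjamini-Hochberg adjustment and an adjusted p below 0.05. DESeq2 1.42.0 was an alternative. On data simulated for this contrast over 14488 genes, edgeR recovered 57 of 100 genes changed 1.5-fold and 90 of 100 changed 3-fold, with 9 false calls. Each simulated gene varied independently, without a shared factor such as the acute-phase split of the wild-type mice. The number of false calls therefore cannot be carried over to the measured data.

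Genes were named from the smallest p-values in each gene list, the largest changes, the classes of expression and the leading families. A further 11 called genes (such as *Cbs* and *Atf3*) completed lists after their values were seen. Some members of the lists are not reported here. The comparison, gene lists and members were chosen with earlier results of these data known. Nothing says whether mice shared litters or extraction batches, and p-values measure the spread between these animals.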

Additional observations from a re-analysis of the deposited data

Results flagged for a closer look

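The genotype effect at ZT8 differed from that at ZT20 for 60 of the called genes named here, by the interaction term of the edgeR quasi-likelihood fit (adjusted p below 0.05). Each value below is the log2 fold change at ZT8 minus that at ZT20. The genes of the clock and its targets had differences of 5.20 for *Arntl*, 2.90 for *Npas2*, 2.48 for *Nfil3*, 2.24 for *Cry1*, 1.36 for *Clock*, 4.44 for *Cdkn1a*, 1.68 for *Insig2*, 1.72 for *Elovl3* and -1.37 for *Wee1*. Genes of one-carbon and amino acid metabolism had differences of 1.21 for *Gldc*, 0.67 for *Amt*, 0.66 for *Shmt1*, 0.74 for *Cdo1*, 1.81 for *Ahcy*, 2.00 for *Ddc* and 0.53 for *Kynu*. Lipid, sterol and bile acid genes had differences of 2.98 for *Chka*, 1.55 for *Plin5*, 0.69 for *Agpat2*, 0.53 for *Cept1*, 0.41 for *Abhd5*, 0.64 for *Lipc*, 0.55 for *Lipa*, 0.60 for *Abcb11*, 1.39 for *Cyp8b1*, 0.61 for *Cyp2c70*, -0.70 for *Abcg5*, -0.78 for *Abcg8*, -0.93 for *Fads3* and -0.53 for *Eci2*. Genes of the fasting and stress responses had differences of 5.16 for *Fgf21*, 5.14 for *Nupr1*, 1.57 for *Pdk4*, 1.71 for *Atf3*, 1.35 for *Atf5*, 0.67 for *Ddit3*, 0.92 for *Dnajb9* and -0.52 for *Eif4ebp1*. Receptors, signalling and growth genes had differences of 1.33 for *Ppard*, 1.22 for *Stat5a*, 0.76 for *Prlr*, 0.50 for *Hnf4a*, -0.65 for *Nr3c2*, -0.78 for *Thra*, -0.57 for *Mknk2*, -2.63 for *Lpar2*, -1.38 for *Maff*, -2.07 for *Il1rn*, -1.92 for *Nol3* and 0.62 for *Nol8*. The remaining genes, of transport, detoxification and other roles, had differences of 1.46 for *Tfrc*, 1.07 for *Cyp2c68*, 0.95 for *Slc2a1*, 0.62 for *Ugt2b1*, 0.47 for *Slc11a2*, 0.36 for *Hfe2*, -1.34 for *Tmem51*, -1.20 for *Gapdh*, -0.98 for *Rnase4* and -0.93 for *Ak4*. All but 1 of these differences had the sign of the ZT8 effect, the exception being *Ahcy*. Since the genes were named for their difference at ZT8, this agreement of sign follows in part from the choice.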

How the results depend on the processing

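In the reported fit 1224 genes were called (638 higher, 586 lower, 1112 outside the followers, 112 followers). With 1 mouse left out, the number called ranged from 542 to 1811, higher genes from 298 to 839, lower genes from 244 to 972, genes outside the followers from 499 to 1434 and followers from 43 to 377. With only the 6 ZT8 livers in the fit, 769 genes were called (393 higher, 376 lower, 712 outside the followers, 57 followers). With the acute-phase index as a covariate, 408 were called (226 higher, 182 lower, 312 outside the followers, 96 followers). Only 300 of the 408 were also called in the reported fit, 268 of these outside the followers, so most of the 96 followers were not among the 112. With wild-type replicate 1 as the only wild-type mouse, an alternative chosen after seeing the data that assumes the lone mouse to vary like the other groups, 346 were called (188 higher, 158 lower, 266 outside the followers, 80 followers). At an adjusted p below 0.01 there were 472 (256 higher, 216 lower, 434 outside the followers, 38 followers). Followers numbered 190 with DESeq2, and 249 and 29 with a lower fold limit in the rule and with one of 2-fold. *Saa2* reversed to 0.092 under the covariate, and *Lcn2* to 0.57 under the covariate and to 0.11 with wild-type replicate 1 alone. The cause was not tested.

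With the replicate number as a block, 1210 genes were called, 1077 of them shared with the fit without it. Correlations of same-numbered mice, taken over genes after removal of the group means, were 0.017, 0.011 and -0.0068. Those of mice with different numbers lay between -0.067 and 0.059. With 3 mice per group these values cannot decide whether same-numbered mice shared a litter or batch. Of the 127 called genes named here, 35 were called in all 14 settings and 125 kept their sign in all of them.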
